A study of Saccharomyces cerevisiae with 6 samples.

Results

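The general stress response genes are 32 genes of budding yeast that are known to be induced by many kinds of stress. They were listed apart from the chaperone, carbohydrate and redox families. The division is loose, since the 32 include SOL4 of the pentose phosphate pathway and the glutathione transferase genes ECM4 and GTT1. The 32 genes were taken by gene symbol from the array's annotation, where 31 of them, each with 1 spot, were found among 5379 genes. UGX2 was not analysed here. The ratios compare Saccharomyces cerevisiae S288C, a laboratory strain with 1 set of chromosomes, grown in rich glucose medium (YPD) at 25 °C and given methanol to 5% at an optical density of 1 for 2 h, with cultures of the same strain left untreated for the same 2 h. Treated RNA carried Cy5 and untreated RNA Cy3 on each of 3 arrays of independent biological samples, numbered 1 to 3, with no dye swap, so a dye effect on a gene cannot be told apart from the treatment. Each array was read with a strong and a weak laser setting (high and low power), and the 2 scans were averaged and counted as 1 replicate.

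When yeast meets heat, salt, an oxidant, a poor carbon source or a solvent, the zinc finger factors Msn2 and Msn4 enter the nucleus and bind the stress response element upstream of a large shared set of genes. Protein kinase A, active in plentiful glucose, keeps them in the cytoplasm. The genes described here were chosen as stress-induced genes, not by binding of these factors, which was not examined. Their products work at the cell surface, in mitochondria, in signalling, in mRNA and protein turnover or in detoxification, and several have no settled function.

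Values are log2 ratios of methanol over untreated, centred so that the median gene of each array is at 0, and are given as mean ± SD over n = 3 arrays. The files state neither base nor direction. Base 2 was assumed, and methanol over untreated is the likely direction, since treated RNA is listed as the first channel. Across the 4336 genes with a value on all 3 arrays, Pearson's r between arrays was 0.821 to 0.888, where genes are not independent replicates. The untreated culture's own spread is inside each ratio and cannot be seen apart, and a change in total mRNA per cell cannot be seen in centred ratios. Because ratios hold no level, the mating type of the strain could be checked only by which spots gave values. The 3 alpha-specific genes on the array (MF(ALPHA)2, STE3 and SAG1) had values in all 6 scans, and the 4 a-specific genes (MFA1, MFA2, STE2 and AGA2) in 2 or 3.

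Methanol was accompanied by higher transcript levels of nearly all of these stress genes. Of the 30 that could be tested, 28 rose, 0 fell, and SYM1 and GSP2 did not pass the test, which was limma's moderated test at an adjusted p under 0.05 over all 4336 genes. Among all genes tested, 26% were called higher and 24.2% lower, 50.3% in all. The median log2 ratio of the 30 genes was 1.57, beside -0.01 for all genes, and 20 of the 30 rose at least 2-fold, against 7.54% of all genes. TMA17 had no value on replicate 2 and was not tested. The genes were picked with earlier results of these arrays known, so these counts describe them and are no independent evidence.

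**Figure D1:**
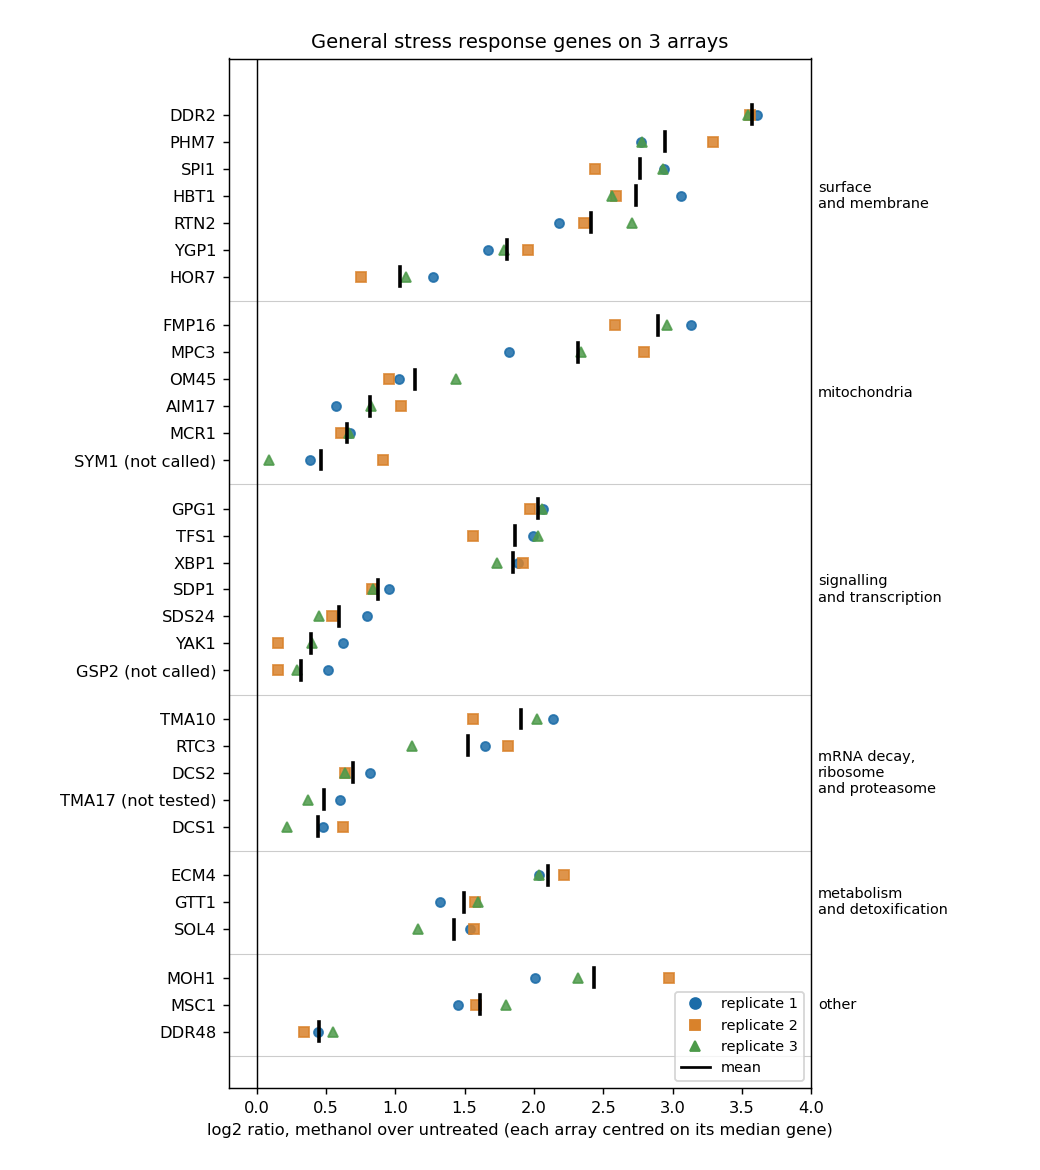
Log2 ratio of methanol over untreated for 31 general stress response genes, grouped by the role of their products; each symbol is 1 array, and the black tick is the mean. All 31 genes lie above 0 on every array that measured them, from 0.32 for the mean of GSP2 to 3.57 for that of DDR2.

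All 30 tested genes were above the median gene on each of the 3 arrays. Of all genes tested, 51.0%, 49.8% and 49.1% were above it on replicates 1, 2 and 3. The same sign on all 3 arrays was common, seen in 3138 of the 4336 genes. The median of the 30 genes was 1.59 on replicate 1, 1.57 on replicate 2 and 1.67 on replicate 3, so the arrays gave closely similar centres. Single genes differed more: replicates 1, 2 and 3 were the highest array for 13, 11 and 6 genes and the lowest for 8, 13 and 9. Replicate 2 was also the sparsest array, with values for 4399 genes beside 5166 on replicate 1 and 5339 on replicate 3. At least 2-fold higher ratios were seen for 20, 19 and 20 of them on replicates 1, 2 and 3, where 7.98%, 11.2% and 7.03% of all tested genes reached that size. The median SD over arrays was 0.23 for these genes and 0.22 for all genes. Ranked by mean ratio, 14 of the 30 stood among the 100 highest of the 4336 genes, and 20 among the 400 highest. If the direction were the opposite, these would be the 100 and the 400 lowest, and every other sign would turn as well. The remaining 10 reached down to rank 1301, which is GSP2.

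**Figure D2:**
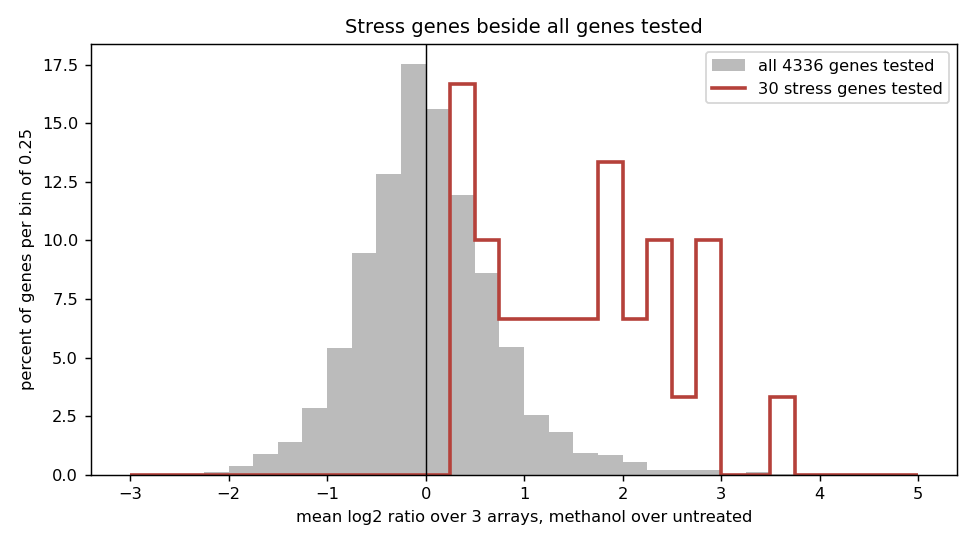
Mean log2 ratio over 3 arrays in bins of 0.25, as a percent of the 4336 genes tested (grey) and of the 30 stress genes tested (red line). The stress genes start at 0.32 and reach 3.57, with a median of 1.57, while all genes centre on -0.01.

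The genes of surface and membrane proteins had the highest median of the role groups, 2.74, with 7 of 7 called higher, each at least 2-fold. DDR2 (YOL052C-A), which encodes a small protein induced by DNA damage, heat and many other stresses, stood highest. Its ratio was 3.61 on replicate 1, 3.56 on replicate 2 and 3.54 on replicate 3. The arrays lay very close together, at 3.57 ± 0.04 or 11.9-fold (limma adjusted p = 1.25e-05, 95% interval 3.29 to 3.85), and only 3 tested genes ranked above it. DDR2 had no high-power value on replicates 1 and 3, so its value rests there on the low-power scan, which per the labels was meant for very bright spots.

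PHM7 (YOL084W), the gene of a membrane protein whose transcript was first seen to respond to phosphate supply, had ratios of 2.77, 3.29 and 2.78 on replicates 1, 2 and 3. Replicate 2 was the highest, and the mean of 2.95 ± 0.30 was a 7.72-fold rise (limma adjusted p = 3.02e-05). SPI1 (YER150W) encodes a cell wall protein with a lipid anchor that accumulates in stationary phase. It stood at 2.94, 2.44 and 2.93, a mean of 2.77 ± 0.28 (limma adjusted p = 3.62e-05), with replicate 2 lowest and with low-power values only on replicates 2 and 3. HBT1 (YDL223C), whose product lies at the tip of mating projections and binds the ubiquitin-like protein Hub1, had 3.06, 2.59 and 2.56, a mean of 2.74 ± 0.28. Here replicate 1 was the high one, so no single array was high or low throughout these genes.

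RTN2 (YDL204W) encodes a reticulon, a protein that bends the membrane of the endoplasmic reticulum into tubules. Its ratios were 2.18, 2.36 and 2.71, and it rose 5.33-fold. YGP1 (YNL160W), the gene of a secreted glycoprotein made when nutrients run short, had 1.67, 1.96 and 1.79, a rise of 3.49-fold with little spread. HOR7 (YMR251W-A), named for its response to high osmolarity, was the lowest of the group at 1.27, 0.76 and 1.08, and rose 2.05-fold.

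Of the 6 genes of mitochondrial proteins, 5 rose and SYM1 did not pass the test, with a median of 0.98. FMP16 (YDR070C), whose product was found in the mitochondrial proteome, had ratios of 3.13, 2.59 and 2.96 and a mean of 2.89 ± 0.28 (limma adjusted p = 3.02e-05), a 7.43-fold rise. MPC3 (YGR243W) encodes the subunit of the mitochondrial pyruvate carrier that is used in respiring cells. Its arrays spread widely, at 1.82, 2.80 and 2.34, yet the lowest of them was still 3.53 times the untreated level.

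The other genes of this group moved less. OM45 (YIL136W), the gene of an abundant outer membrane protein, had 1.03, 0.96 and 1.44, a rise of 2.21-fold. AIM17 (YHL021C), a gene of little-known function, had 0.57, 1.04 and 0.83, all from low-power scans. MCR1 (YKL150W), which encodes a reductase of cytochrome b5, had 0.67, 0.61 and 0.67, small in change but even over the arrays at 1.57-fold. The scans behind these means were less even, at 0.79 with the high-power scans alone and 0.52 with the low-power scans alone. SYM1 (YLR251W) encodes an inner membrane protein needed for growth on ethanol at high temperature. Its ratios were 0.39, 0.91 and 0.09, so the arrays ran from near no change to 1.88 times the untreated level, and the mean of 0.46 ± 0.42 did not pass (limma adjusted p = 0.0576). It passed with the high-power scans alone (limma adjusted p = 0.0351) and without replicate 3 (0.0446). On replicate 2, its highest array, SYM1 had a high-power value only.

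Among 7 genes of signalling and transcription, 6 rose and GSP2 did not pass, with a median of 0.88. GPG1, TFS1 and XBP1 stood well above the other 4. GPG1 (YGL121C), the gene of a proposed gamma subunit of a heterotrimeric G protein in the glucose-sensing branch of the protein kinase A pathway, had 2.06, 1.97 and 2.06. With an SD of 0.05 it was among the most even, at 4.09-fold. TFS1 (YLR178C) encodes an inhibitor of carboxypeptidase Y that also binds the Ras regulator Ira2, and had 1.99, 1.56 and 2.03. XBP1 (YIL101C), the gene of a transcriptional repressor made in stressed and starved cells, had 1.88, 1.92 and 1.73, a 3.59-fold rise.

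SDP1 (YIL113W) encodes a phosphatase that acts on Slt2, the kinase of the cell integrity pathway, and had 0.95, 0.84 and 0.84. SDS24 (YBR214W), which has a role in cell separation, had 0.80, 0.54 and 0.45. YAK1 (YJL141C), the gene of a kinase that opposes protein kinase A in growth control, had 0.62, 0.15 and 0.40. All arrays were above 0, but the mean of 0.39 ± 0.23, a 1.31-fold rise, passed only narrowly (limma adjusted p = 0.0488). IRC9 overlaps YAK1 in the R64 annotation, and the array's signal for the pair cannot be told apart. GSP2 (YOR185C), 1 of a pair of genes of Ran, the GTPase of nuclear transport, had 0.51, 0.16 and 0.29, and its mean of 0.32 ± 0.18 did not pass (limma adjusted p = 0.0769).

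Of the 5 genes of mRNA decay, ribosome and proteasome factors, 4 were tested and all 4 rose, with a median of 1.11. TMA10 (YLR327C), whose product associates with ribosomes, had 2.13, 1.56 and 2.03, a 3.75-fold rise. RTC3 (YHR087W), the gene of a protein related to a ribosome maturation factor, had 1.65, 1.81 and 1.12, with replicate 3 lowest. DCS2 (YOR173W) encodes a regulator of the scavenger decapping enzyme and had 0.82, 0.64 and 0.64. DCS1 (YLR270W), the gene of that enzyme, which clears the cap left when mRNA is degraded, had 0.48, 0.63 and 0.22, with a mean of 0.44 ± 0.20 (limma adjusted p = 0.0278). TMA17 (YDL110C), the gene of an assembly chaperone of the proteasome, had 0.60 and 0.37 on replicates 1 and 3. In the fit without replicate 2, in which it could be tested on 2 arrays, TMA17 was called higher (0.49, limma adjusted p = 0.0309), and in the fit that accepts genes valued on 2 arrays it was not (0.0589).

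All 3 genes of metabolism and detoxification rose, with a median of 1.50. ECM4 (YKR076W), the gene of a glutathione transferase of the omega class, had 2.04, 2.22 and 2.04, a 4.28-fold rise with little spread. GTT1 (YIR038C) encodes a glutathione transferase of the endoplasmic reticulum and had 1.32, 1.57 and 1.60. SOL4 (YGR248W), a gene of 6-phosphogluconolactonase in the pentose phosphate pathway, had 1.54, 1.57 and 1.17, a rise of 2.68-fold. The intervals of GTT1 (1.20 to 1.80) and SOL4 (1.10 to 1.75) overlap widely.

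The remaining 3 measured genes rose as well. MOH1 (YBL049W), a gene linked to survival in stationary phase, had 2.00, 2.98 and 2.32, the widest spread of any of the 30 genes (SD 0.50). It had values at high power only. MSC1 (YML128C), a gene first found through recombination between sister chromatids, had 1.46, 1.58 and 1.80, a 3.06-fold rise. DDR48 (YMR173W), named with DDR2 for its response to DNA damage, had 0.45, 0.35 and 0.55. Its mean of 0.45 ± 0.10, 1.36-fold, passed (limma adjusted p = 0.0190) but was far below that of DDR2, and the lowest array of DDR2 exceeded the highest of DDR48 by a wide margin.

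The 4 lowest called genes were thus YAK1, DCS1, DDR48 and SDS24, the last at 0.60 ± 0.18 (limma adjusted p = 0.00758). Each of them lost its call in at least 1 fit that left out an array. Without replicate 1, 24 of the 28 calls held and these 4 did not, with limma adjusted p-values of 0.283 for YAK1, 0.149 for DCS1, 0.109 for DDR48 and 0.0812 for SDS24. Without replicate 2 DCS1 was lost (0.0848), and without replicate 3 YAK1 (0.163) and DDR48 (0.120) were. YAK1 was also not called without centring (0.0681) or when genes valued on 2 arrays were included (0.0599). The 24 calls that held without replicate 1 were of genes at 0.65 or more. In that fit 15.3% of all genes were called higher, against 26% with all 3 arrays.

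Targets of Msn2 and Msn4 known from textbooks, and regulators of the response, were described from 2 further lists. Of 44 textbook targets of Msn2 and Msn4 that belong to other families, 41 were tested, of which 35 rose and 0 fell, with a median of 1.13, where 26% of all genes were called higher and 24.2% lower. All 14 tested genes of trehalose, glycogen and sugar metabolism were called higher. So were all 11 of a broad redox group, which holds ALD2, ALD3, GRE3 and CYC7 beside genes of redox defence. The highest of the 41 were HSP26, a small heat shock protein gene, at 3.89 ± 0.29, GRE1 at 3.30 ± 0.19, GND2 at 3.16 ± 0.70, SIP18 at 2.97 ± 0.25, HXT5, a hexose transporter gene, at 2.88 ± 0.20 and HSP12 at 2.64 ± 0.27. Chaperone genes divided, with 4 of 7 called higher and HSP104 (0.14 ± 0.40), HSP42 (-0.08 ± 0.35) and HSP78 (-0.26 ± 0.27) not passing. GPD1, PNC1 and UBI4 did not pass either, at 0.17 ± 0.11, 0.16 ± 0.37 and 0.26 ± 0.24.

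Genes that encode the regulators of the response were called in both directions. Of 31, 23 were on the array and 21 were tested, with 4 higher, 4 lower, a median of -0.19 and none that changed 2-fold. That is 19.0% each way, below the 26% of all genes called higher and the 24.2% called lower, so the counts are no result about regulators as a group. MSN4 rose, with ratios of 0.49, 0.71 and 0.87 (0.69 ± 0.19, limma adjusted p = 0.00446). MSN2 had -0.17, -0.04 and -0.63 and did not pass (limma adjusted p = 0.161), and its arrays lay below all 3 of MSN4. GIS1, the gene of a factor acting downstream of the kinase Rim15, rose to 0.72 ± 0.26.

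In the protein kinase A pathway, BCY1, the gene of the regulatory subunit that holds the kinase inactive, rose by 0.62 ± 0.21. PDE1 and PDE2 encode the low- and high-affinity phosphodiesterases that break down cyclic AMP. PDE1 rose, at 0.73, 0.73 and 0.65, while PDE2 fell, at -0.93, -0.37 and -0.98, and the arrays of the 2 genes did not overlap. RAS1 (-0.39 ± 0.15) and RAS2 (-0.73 ± 0.35), genes of the GTPases that activate adenylate cyclase, fell. MSN5, which encodes an exporter of Msn2 from the nucleus, fell as well (-0.47 ± 0.16). Without replicate 1 the regulators had 2 higher and 1 lower call, and without replicate 3 they had 3 higher and 1 lower.

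**Figure D3:**
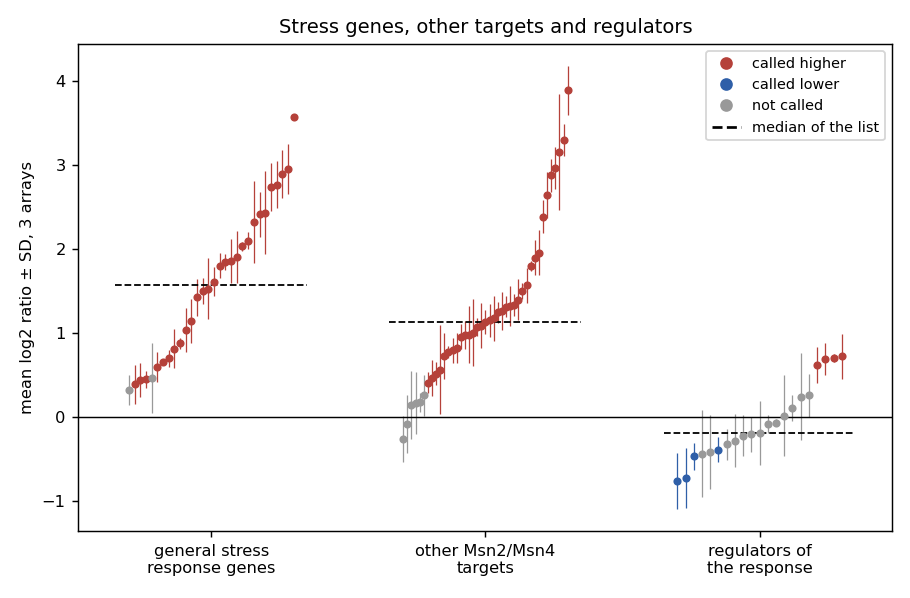
Mean log2 ratio ± SD over 3 arrays for every tested gene of 3 lists, in rising order within a list, coloured by limma's call at an adjusted p under 0.05; dashed lines are medians. The medians are 1.57 for the 30 general stress response genes and 1.13 for 41 textbook targets of Msn2 and Msn4 outside that list. For 21 regulators the median is -0.19. Whether the 30 genes are themselves targets of these factors was not examined.

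Many of the stress genes have a related copy elsewhere in the genome, and the copies were set side by side. In 11 such pairs, 9 had both copies valued on all 3 arrays, and in 8 of the 9 the arrays of the copies did not overlap. In these 8 the same copy was higher on all 3 arrays, namely DDR2, DCS2, GSP2, RTN2, SOL4, TMA10, MPC3 and SPI1. The share of other gene pairs without overlap was not computed, and 50.3% of all genes were called higher or lower. The count is therefore no result about copies. All 8 higher copies belong to the stress genes, which were picked with earlier results of these arrays known, so their place is no independent evidence. For DDR2 with HOR7 and DCS2 with DCS1 both copies are stress genes, so the higher copy had to be one. With 3 arrays an exact sign-flip test of a single pair cannot go below a two-sided p of 0.25, so the differences are given as values. Signal shared between similar copies on a spotted array was not tested.

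DDR2 stood above HOR7 by 2.34, 2.80 and 2.47 on replicates 1, 2 and 3, a mean of 2.53 ± 0.24, although both rose. RTN2 stood 2.44 ± 0.23 above RTN1, the main reticulon gene, which had -0.07, -0.02 and 0.02 and did not pass (95% interval -0.31 to 0.26). MPC3 stood 2.28 ± 0.62 above MPC2, the pyruvate carrier subunit of fermenting cells, which had 0.23, 0.06 and -0.19. SOL3 likewise lay at 0.13, -0.03 and 0.03, against values over 1 for SOL4 on each array. For RTN1, MPC2 and SOL3 the 95% intervals of the ratio covered 0 and stayed between -0.31 and 0.35.

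GSP1, the main gene of Ran, went the other way from GSP2. It had -0.43, -0.93 and -0.99 and fell to 0.582 times the untreated level (limma adjusted p = 0.00451), so the pair differed by 1.10 ± 0.17 although GSP2 itself did not pass. In other pairs both copies rose. SPI1 stood 1.89 ± 0.37 above SED1, the gene of the major cell wall protein of stationary cells, which had 1.16, 0.86 and 0.63. TMA10 stood 0.99 ± 0.20 above STF2 (1.38, 0.47 and 0.91).

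DCS2 and DCS1 were barely apart, with a difference of 0.01 on replicate 2 and 0.34 and 0.42 on replicates 1 and 3. SDS24 and SDS23 were the pair that overlapped, with a difference of -0.07 ± 0.49, and both rose. YGP1 was below its partner SPS100, a gene of spore wall maturation, which had 3.20 and 2.58 on replicates 1 and 3, from high-power scans alone, and no value on replicate 2. MSG5, the partner of SDP1, had 0.22 and 0.18 on the same arrays, and neither SPS100 nor MSG5 was tested.

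**Figure D4:**
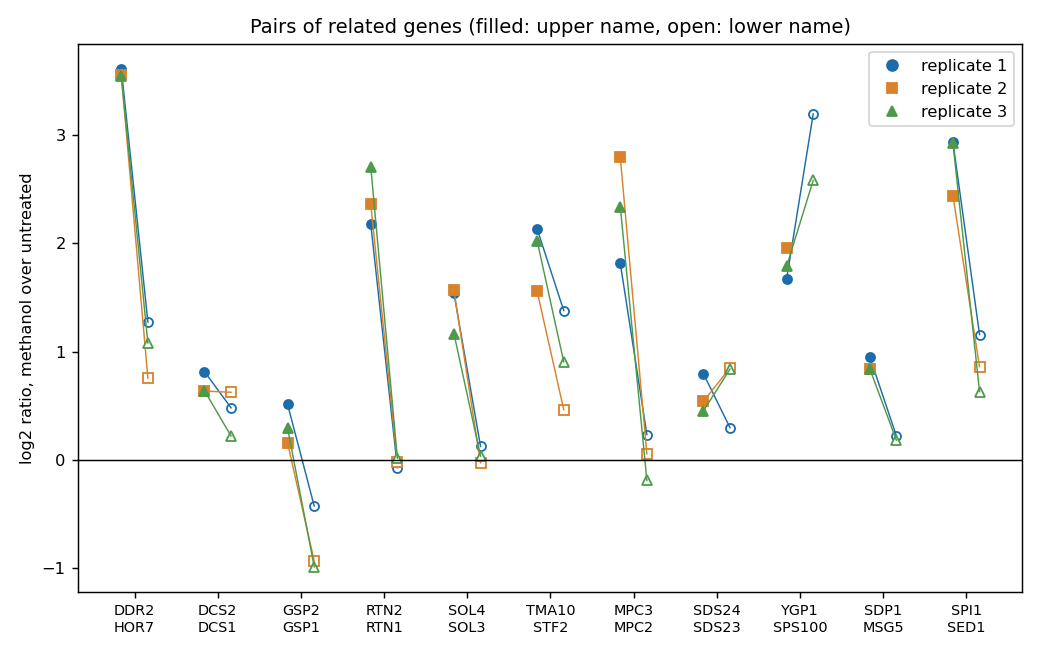
Log2 ratio of methanol over untreated for both copies of 11 gene pairs; filled symbols are the upper and open symbols the lower name of a pair, and lines join values of the same array. RTN1, SOL3 and MPC2 sit near 0 while RTN2, SOL4 and MPC3 do not, and GSP1 lies below 0 on every array.

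The genes lie on 12 chromosomes and none is directly next to another of them in the R64 gene order. Of 62 direct neighbours, 54 were tested, of which 17 were higher, 6 lower and 31 not called, with a median of 0.15. The shares of neighbours called were 31.5% higher and 11.1% lower, and those of all genes 26% and 24.2%; the difference was not tested. Some members have a neighbour that rose too, such as YKR075C beside ECM4 (2.19 ± 0.15), FMP45 beside HBT1 (2.26 ± 0.26) and PAI3 beside DDR48 (2.39 ± 0.20), the last far above DDR48 itself. In contrast PRP43 beside GPG1 stood at -1.59 ± 0.21, while GPG1 was at 2.03 ± 0.05. These neighbours were named after their values were seen.

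The ratios from both laser powers were compared where a spot had both. Of the 31 genes, 15 (48.4%) had values in all 6 scans, against 29.7% of all genes on the array. Over these 15, the ratio at high power minus that at low power ran from -0.04 to 0.25 with a median of 0.02, after subtracting the difference of the scans' medians. By limma 0 of the 15 differences were called, beside 0.125% of the 1595 genes tested so, with a smallest adjusted p of 0.119. At an unadjusted p under 0.05 there were 2, RTN2 (0.21) and MCR1 (0.25). These compare with mean ratios of 2.41 for RTN2 and 0.65 for MCR1. Other genes rest on 1 scan on some array, besides those said above. On replicate 2, FMP16, MPC3, ECM4, RTC3, SOL4 and SDP1 had high-power values only, as DCS1, DCS2 and TMA17 had on replicate 1. YGP1 on replicate 1 and MSC1 on replicate 3 had low-power values only.

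**Figure D5:**
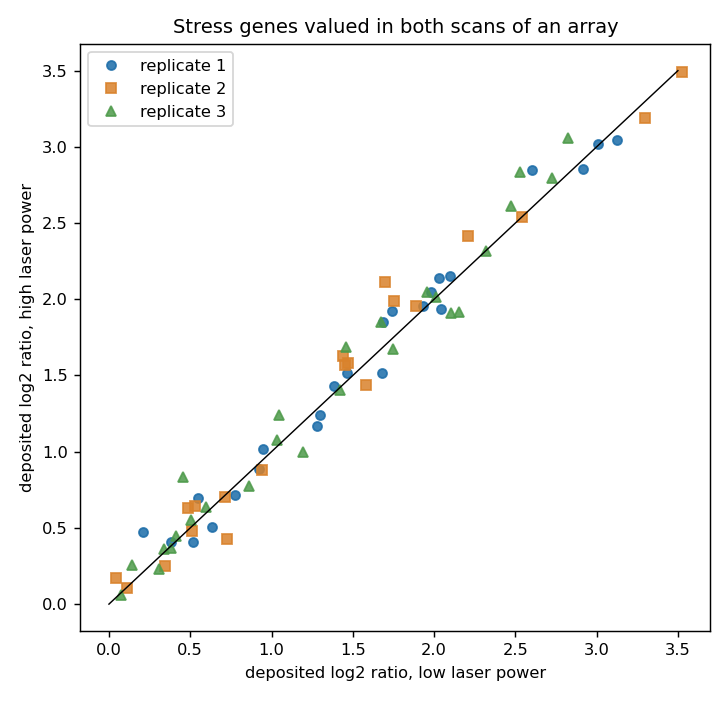
Deposited log2 ratio, before centring, at high against low laser power, for each stress gene and array with values in both scans; the line marks equal values. Points follow the line from near 0 to about 3.5. For the 15 genes valued in all 6 scans, mean differences were between -0.04 and 0.25 after subtracting the difference of the scans' medians, which the plotted values still hold.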

How the data were processed

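The deposited values are log2 ratios, 1 column per scan, with base and direction taken as stated above. Per the labels, the authors applied a LOWESS normalization to spots with flag 0, and merged the scans in GeneSpring; the merged values are not analysed here. Background correction, dim-spot filters and scanner settings are not given in the sources used here, and the number of arrays, 3, limits the precision.

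For every array the mean of both scans was taken spot by spot, a gene's spots were averaged, and the median gene was set to 0. Of 6912 spots, 5446 carry 1 gene in the platform annotation, 0 several and 1466 none; all 5446 matched the R64 gene table by identifier. The test used the genes measured on each of the 3 arrays and was limma's (version 3.58.1, R 4.3.3, intercept against 0, empirical Bayes). Benjamini-Hochberg adjustment was over all 4336. The code was first run on data simulated from limma's own model, which cannot show whether that model holds for these arrays. Every adjusted p for a gene is limma's.

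All 32 stress genes are named, with adjusted p-values for the 4 highest and 4 lowest called genes, those not called, and genes compared with them. Of the other lists at most the 6 highest and lowest genes carry values, besides those named by role. The members and lists were chosen with earlier results of these data known. Counts and medians describe the lists, and no list test was run. A planned description of promoter motifs was not run, as no sequences were used here.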

Additional observations from a re-analysis of the deposited data

How the results depend on the processing

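Each value was recomputed with either scan alone, without centring, with genes valued on at least 2 arrays, with genes valued in all 6 scans, with 1 spot per gene, with array weights, with robust moderation and without each replicate. No stress gene was called lower and none changed sign in any of these fits. Their count of higher calls was 27 of 30 without centring and 24 of 25 with the high-power scans, where 24.7% and 26.4% of all genes were called higher. Without replicates 1, 2 and 3 it was 24 of 30, 28 of 31 with TMA17 among them, and 27 of 30. The shares of all genes called higher in those fits were 15.3%, 23.7% and 20.0%. Over genes valued in all 6 scans the count was 15 of 15, where fewer could be tested and 26.8% of all genes were called higher. GSP2 passed there (limma adjusted p = 0.0369), as it did with array weights (0.0262). Their median log2 ratio was 1.49 with the high-power scans and 1.62 with the low-power scans. It was 1.50 over genes valued in all 6 scans, where each gene kept its main value and only the genes covered changed. When a replicate was left out it was 1.46 to 1.64. Without replicate 1 or replicate 3 the same 30 genes were tested, so the genes covered did not change there. What else moved these medians was not tested.

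The textbook targets of Msn2 and Msn4 had 22 higher calls of 28 tested with the low-power scans. They had 19 of 24 over genes valued in all 6 scans. Fewer genes could be tested in both. Regulators had 2 higher and 3 lower of 9 with the low-power scans, 2 higher and 2 lower of 8 over genes valued in all 6 scans, and 2 to 5 higher and 1 to 3 lower when a replicate was left out. All genes had 431 higher and 485 lower calls of 1710 tested with the low-power scans, and 428 and 517 of 1596 over genes valued in all 6 scans. Leaving out a replicate gave 672 to 1218 higher and 575 to 1120 lower calls, the fewest without replicate 1, and the cause was not tested. Treated and untreated RNA shared each array, so the test of the ratios was already paired by array. No further pairing was possible because the series holds 1 group of ratios. Without spot intensities, signal over background could not be computed.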
